A study of Mus musculus with 4 samples.

Results

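The genes of the mitochondrial respiratory chain were read in CD69+DP thymocytes, the CD4+CD8+ double-positive cells that have received a TCR signal and started positive selection. The genes were taken by symbol, as every listed gene whose symbol begins with Nduf, Uqcr, Cox4 to Cox8 or Atp5, together with *Sdha*, *Sdhb*, *Sdhc* and *Sdhd*. The table lists 92 such genes of 24421 in all. By their known place in the chain these are 38 genes for complex I subunits, 7 for complex I assembly factors, 4 for complex II, 8 for complex III, 18 for complex IV and 15 for complex V, besides *Atp5s* and *Atp5sl*. *Ndufa4* and *Ndufa4l2* are counted with complex I by their symbol, although the *Ndufa4* protein is now known as a complex IV subunit. No gene was chosen for its value in these samples.

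RNA from thymus of 6-week-old C57BL/6 mice was sequenced after sorting for CD69, CD4 and CD8, with 2 control and 2 Foxa1/2cKO samples. Both groups carry loxP-flanked alleles of *Foxa1* and *Foxa2* (Foxa1fl/flFoxa2fl/fl), so that the controls are not wild type. Foxa1/2cKO mice also carry the CD4Cre transgene, which controls lack, and in which the *Cd4* promoter drives Cre. Each sample was sorted from different mice, and the effect of Cre itself cannot be told apart from that of the deletion.

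Complexes I to IV are sets of proteins in the inner mitochondrial membrane. Complex I takes electrons from NADH, complex II takes them from succinate, complex III passes them from ubiquinol to cytochrome c, and complex IV hands them to oxygen. The proton gradient that complexes I, III and IV build drives complex V, the ATP synthase. Most subunits are encoded in the nucleus and some in mitochondrial DNA, and assembly factors build the complexes without staying in them. Thymocytes change their reliance on respiration and glycolysis as they divide and mature.

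Sequence just upstream of these genes is shown for the gene with the smallest limma p (*Ndufaf2*), the gene with the next smallest (*Sdha*), a gene of the ATP synthase c subunit (*Atp5g1*), the most abundant transcript (*Atp5b*), and *Cox6a1*, whose window holds 3 of the 4 motifs searched. The windows of *Sdhb* and *Ndufaf1* also hold 3, and that of *Atp5l* holds all 4, but they are not shown. Each line gives 250 bases before and 50 bases after the annotated start, from RefSeq on GRCm38.p6 (mm10), 5′ to 3′ on the strand of the gene. Capitals mark matches, on either strand, to the core of the NRF1 motif (GCGCATG), the ETS motif bound by GABP (CCGGAAG), the CCAAT box (CCAAT) and a forkhead motif of the kind Foxa proteins bind (TNTTTAC).
Ndufaf2, chr13:108158576-108158875, minus strand: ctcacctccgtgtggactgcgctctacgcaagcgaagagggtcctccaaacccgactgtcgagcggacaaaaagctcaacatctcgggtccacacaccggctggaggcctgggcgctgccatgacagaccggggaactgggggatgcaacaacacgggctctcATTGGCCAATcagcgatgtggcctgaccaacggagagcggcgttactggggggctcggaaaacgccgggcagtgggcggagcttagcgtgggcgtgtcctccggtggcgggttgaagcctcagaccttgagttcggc
Sdha, chr13:74350191-74350490, minus strand: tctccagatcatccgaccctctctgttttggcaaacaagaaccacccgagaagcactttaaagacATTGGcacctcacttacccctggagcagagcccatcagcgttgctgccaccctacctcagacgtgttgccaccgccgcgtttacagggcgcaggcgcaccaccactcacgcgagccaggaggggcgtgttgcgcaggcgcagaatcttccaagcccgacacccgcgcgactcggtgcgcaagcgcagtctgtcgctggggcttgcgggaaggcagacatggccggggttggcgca
Cox6a1, chr5:115348909-115349208, minus strand: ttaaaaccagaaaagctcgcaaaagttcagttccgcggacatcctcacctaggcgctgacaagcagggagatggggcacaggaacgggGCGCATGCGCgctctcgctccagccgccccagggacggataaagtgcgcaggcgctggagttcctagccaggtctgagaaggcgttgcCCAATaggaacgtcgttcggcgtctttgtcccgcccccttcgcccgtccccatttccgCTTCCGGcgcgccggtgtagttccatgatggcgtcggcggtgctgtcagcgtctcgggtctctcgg
Atp5g1, chr11:96075582-96075881, minus strand: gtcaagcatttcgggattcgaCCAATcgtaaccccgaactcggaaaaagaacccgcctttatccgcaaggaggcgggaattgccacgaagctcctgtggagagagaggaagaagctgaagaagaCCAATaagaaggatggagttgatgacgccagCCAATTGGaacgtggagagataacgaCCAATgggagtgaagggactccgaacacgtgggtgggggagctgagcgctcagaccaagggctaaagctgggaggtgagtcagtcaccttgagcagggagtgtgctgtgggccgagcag
Atp5b, chr10:128083057-128083356, plus strand: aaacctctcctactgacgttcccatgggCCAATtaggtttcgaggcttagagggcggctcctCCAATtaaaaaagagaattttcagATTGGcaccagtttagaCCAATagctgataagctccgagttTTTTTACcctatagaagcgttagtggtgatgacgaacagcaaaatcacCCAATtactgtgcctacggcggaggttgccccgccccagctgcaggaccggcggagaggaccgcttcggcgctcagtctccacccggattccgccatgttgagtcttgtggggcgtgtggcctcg

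RefSeq windows were found for 73 of the 92 genes, which had 78 annotated starts. The NRF1 core, known from respiratory chain promoters, was in 15 of these 78 windows (19.2%), against 3.91% of all 32851 windows and 7.53% of those of the genes tested here, and the *Cox6a1* window above is 1 of the 15. This core was chosen after the matches to a longer form of the motif had been seen. The ETS motif was in 17 windows (21.8%), against 19.4% for the genes tested. A CCAAT box was in 33 windows (42.3%, against 38.0%). The forkhead motif was in 5 (6.41%), against 8.20% of the windows of tested genes and 12.4% of all windows, and the *Atp5b* window above is 1 of the 5. Such a match describes the letters in the window and is not a site of binding, which was not measured here.

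Depth and purity set the frame for the values. Reads on listed genes, recovered from the steps between values, ranged from 10396459 to 14482108 per sample. *Foxa1* and *Foxa2* were listed at 0 in all 4 samples, and give no check of the genotypes. The genes of the sorted markers were high in every sample (*Cd4* at 342 to 446 FPKM, *Cd8a* at 475 to 666, *Cd69* at 103 to 121). All 12 DP thymocyte markers summed to 3652 for control 1, 3733 for control 2, 3684 for Foxa1/2cKO 1 and 4542 for Foxa1/2cKO 2. Their fitted change was upward for 10 and downward for 2. *Ptcra*, the lowest of the 12, read 11.2 and 11.9 FPKM in control samples, then 7.44 and 3.23 with the deletion. Its log2 fold change was -1.08 (unadjusted p = 0.0273, adjusted p = 0.863 from limma). Foxa1/2cKO 2 stood apart: the summed FPKM of 20 proliferation markers was 612 there, 1360 in Foxa1/2cKO 1 and 1251 and 1329 in the controls. For the B cell markers, 9 of them listed, the controls gave sums of 86.2 and 57.1, Foxa1/2cKO 1 the highest at 118, and Foxa1/2cKO 2 gave 61.7. Myeloid markers summed to 113 to 162, thymic epithelial markers to 13.5 to 16.9, markers of mature SP thymocytes to 233 to 357, and erythroid markers to 0.812 to 2.94, with 6 of 11 at 0 in all samples. The part of these cells in the results for respiratory chain genes was not tested. In bulk samples, fewer cells of a type and less RNA per cell cannot be told apart.

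Levels are given in FPKM, a read count divided by gene length and by a total for each sample. They are in the order control 1, control 2, Foxa1/2cKO 1 and Foxa1/2cKO 2, and means with SD are over n = 2. For Foxa1/2cKO 2 the total behind the values, 11093928, lay below its 11261890 recovered reads. In each other sample the total lay above the recovered reads. The respiratory chain genes were abundant. Their mean FPKM over the 4 samples was at least 100 for 32 genes and at least 10 for 78, and 73 lay above the median of all genes tested, which was 14.8. Summed over the 92 genes the FPKM came to 8318, 8593, 8236 and 8387, or 2.24%, 2.31%, 2.25% and 2.19% of all FPKM. The groups overlapped in the sum and in the share. Sums here and below are on the deposited scale. On the scale of recovered reads those of Foxa1/2cKO 2 would be lower relative to the other samples, and an overlap of sums may not hold there. The plot of FPKM by complex shows how far the 4 samples lay together for each gene.

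**Figure D1:**
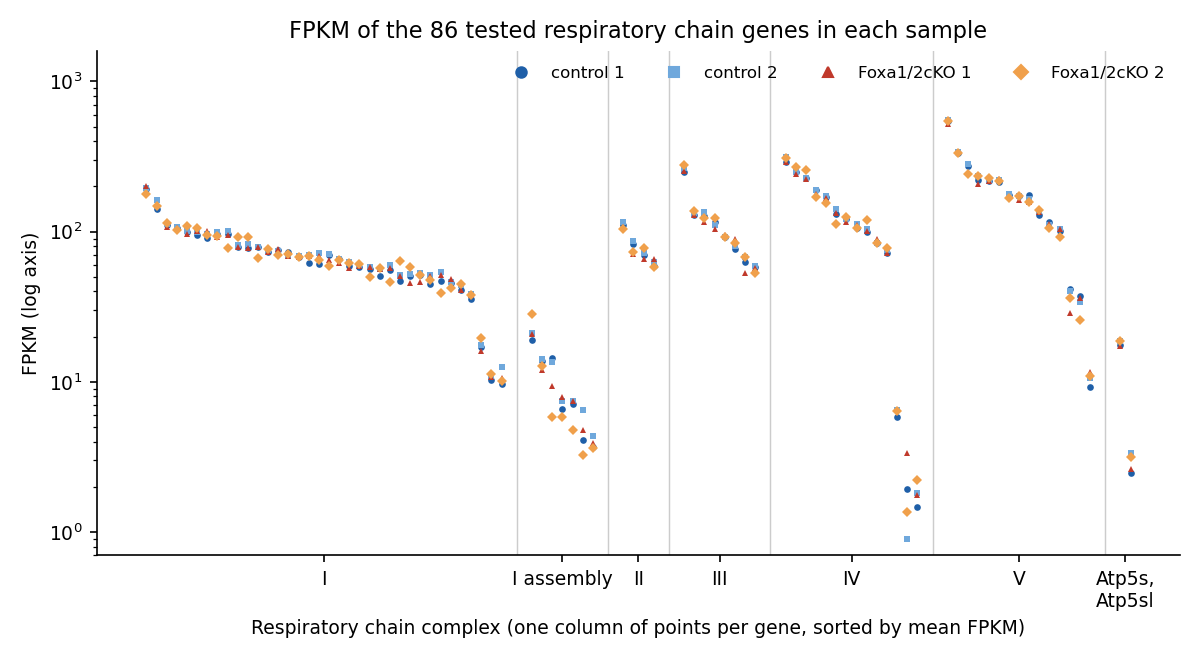
FPKM on a log axis of the 86 respiratory chain genes that reached 1 FPKM in 2 or more samples, by complex; each column is a gene and each of its 4 points a sample. Complex V holds the highest level, *Atp5b* at 521 to 557 FPKM, the assembly factors of complex I lie mostly under 20 FPKM, and the points of a gene lie close together except at low levels.

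Of the 92 genes, 86 reached 1 FPKM in 2 or more samples and entered the limma fit on log2(FPKM + 1), which ran over 10776 genes. In that fit 0 of the 86 had an adjusted p under 0.05 after Benjamini-Hochberg adjustment, against 0.00928% of all genes tested, and limma-voom on recovered reads also gave 0. With limma-voom an unadjusted p under 0.05 was found for 3 of the 86 (3.49%), against 4.96% of all genes tested. In the main fit it was found for 2 (2.33%), against 4.55%. Both, *Ndufaf2* and *Sdha*, were lower in Foxa1/2cKO, as were 2.15% of all genes at that threshold, and 0 were higher, against 2.39%. The groups did not overlap for 22 of the 86 (25.6%), against 36.7% of all genes. Of the 22, 5 were higher in Foxa1/2cKO and 17 lower, beside 18.9% and 17.8% of all genes. The median log2 fold change was -0.014 over the 86 and 0.0051 over all genes tested.

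The precision was enough to bound most of these genes. The fitted change was under 0.25 on the log2 scale in either direction for 81 of the 86 (94.2%, against 82.4% of all genes), and the 95% interval lay within 0.5 either way for 74 (86.0%, against 58.1%). Replicates also differed less for these genes than over the whole table: the SD of the log2 difference between the controls was 0.12, against 0.20 over all genes tested, and between the Foxa1/2cKO samples it was 0.22, against 0.40. The same SDs were 0.12 and 0.17 in mitochondrial ribosome genes and 0.10 and 0.17 in cytosolic ribosome genes, and the median level of the respiratory chain genes was 74.6 FPKM, against 14.8 over all genes tested. Foxa1/2cKO 2 lay outside the other 3 samples for 54 of the 86 genes (62.8%), against 73.8% of all genes tested.

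Those counts depend on the Foxa1/2cKO samples. With Foxa1/2cKO 2 left out, limma gave 11 of the 86 (12.8%) an unadjusted p under 0.05, beside 17.7% of all genes tested, and the adjusted count stayed at 0, beside 0.224%. With Foxa1/2cKO 1 left out, 26 (30.2%) passed unadjusted, beside 40.1% of all genes, and 16 (18.6%) passed after adjustment, beside 25.4%, and the lone Foxa1/2cKO 2 was then taken to vary like the controls. Without control 1 or control 2, 1 gene (1.16%) was left in each case, *Ndufaf2*, beside 1.09% and 0.573% of all genes. In none of these 4 fits did the adjusted share of the respiratory chain genes exceed that of all genes.

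**Figure D2:**
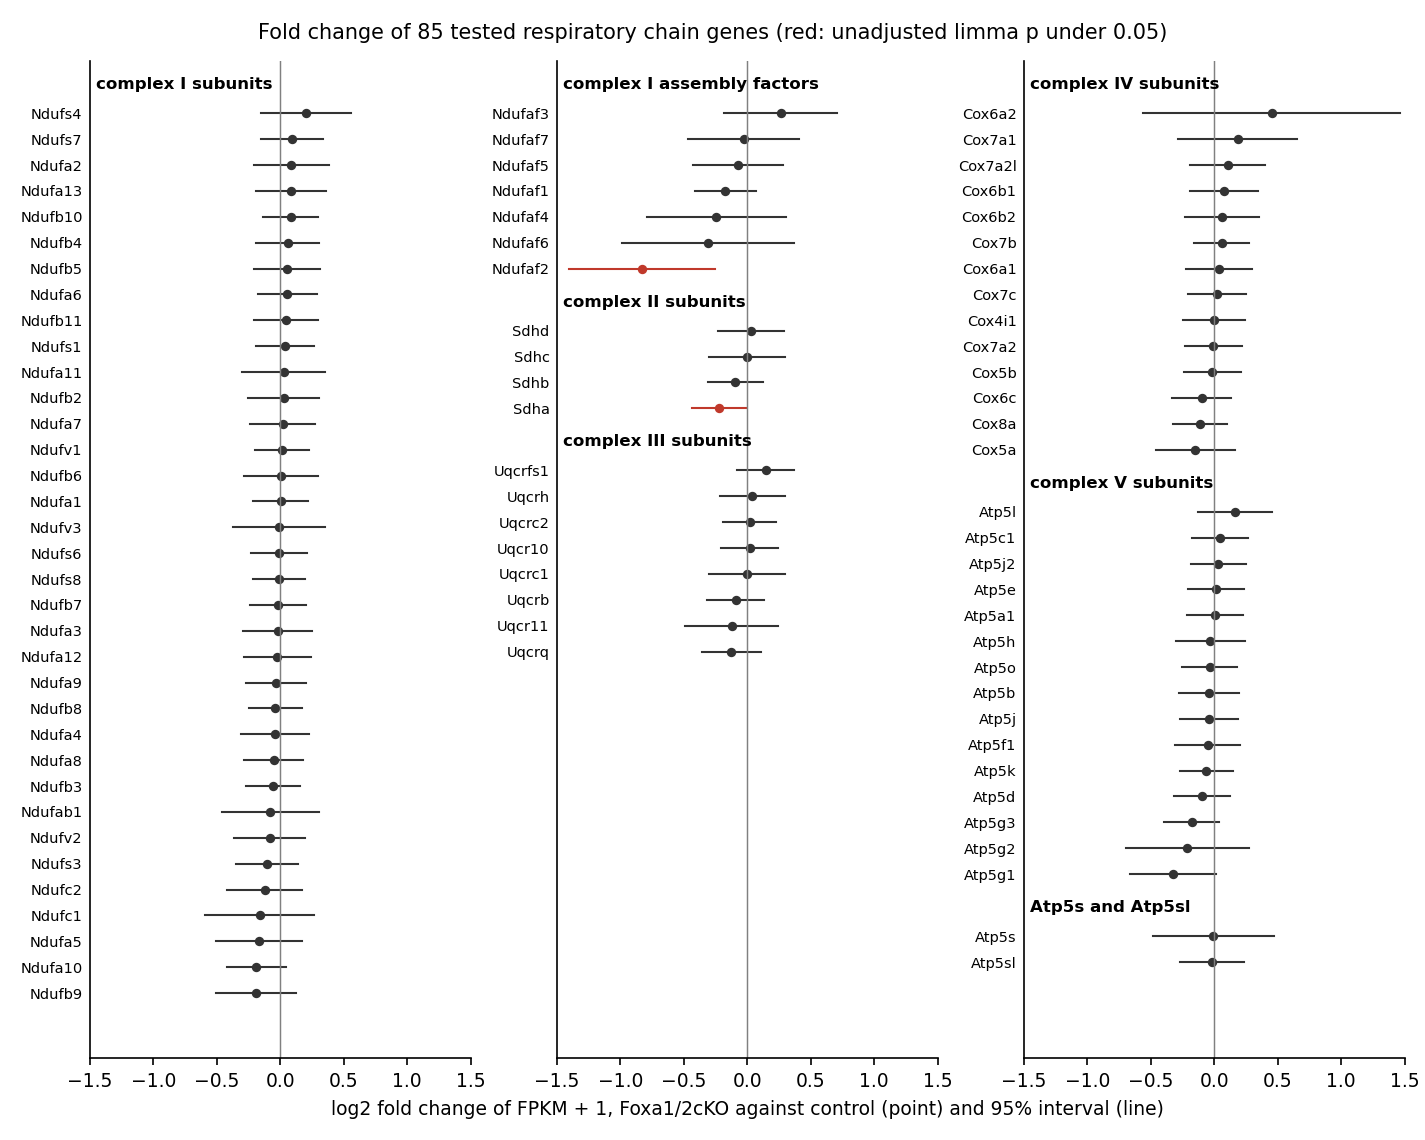
Log2 fold change of FPKM + 1 in Foxa1/2cKO against control for 85 of the 86 tested genes, with the 95% interval from limma, by complex; red marks an unadjusted p under 0.05. Only *Ndufaf2* (-0.83) and *Sdha* (-0.22) have intervals that leave out 0 among those drawn, and most points lie within 0.25 of it.

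Complex I, the NADH dehydrogenase, had 36 tested subunit genes, and 0 of them had an unadjusted p under 0.05. Their median log2 fold change was -0.011, and single genes ranged from -0.19 to 0.20. Summed over the 38 subunit genes the FPKM came to 2493, 2613, 2534 and 2517, so the groups overlapped. The 7 nuclear core subunits, which hold the flavin, the iron-sulphur clusters and the quinone site, spanned -0.10 to 0.09. *Ndufs1*, the largest of the core subunits, read 35.6, 38.2, 38.1 and 37.7 FPKM. *Ndufv1*, which holds the flavin that takes the electrons from NADH, read 58.1, 60.2, 59.1 and 60.5. The groups overlapped for both genes.

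Further core subunits lay in the same range of levels. *Ndufs3*, *Ndufs7* and *Ndufs8* had control means of 52.3, 53.3 and 68.4 FPKM and Foxa1/2cKO means of 48.7, 56.9 and 67.8. *Ndufv2*, the partner of *Ndufv1*, read 57.0 ± 1.15 in control and 54.0 ± 5.77 in Foxa1/2cKO. Of these 4 only *Ndufs3* had groups that did not overlap.

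Among the accessory subunits, which surround the core, the most abundant was *Ndufa4*, at 194, 196, 203 and 177 FPKM. The control mean was 195 ± 1.86, and the Foxa1/2cKO samples lay on both sides of it. *Ndufa3* read 141, 163, 151 and 148, and *Ndufb7* read 111, 112, 107 and 114. The groups overlapped in all 3 of these genes. The smallest p values in this group belonged to *Ndufa10*, a subunit related to nucleoside kinases, and *Ndufb9*, a membrane subunit of the LYR family. *Ndufa10* read 69.6, 70.7, 64.4 and 58.8, with both Foxa1/2cKO samples below both controls and a log2 fold change of -0.19 (SE 0.09; unadjusted p = 0.0933 and adjusted p = 0.863 from limma). *Ndufb9* read 96.2, 101, 94.8 and 78.4. Foxa1/2cKO 2 was the low sample there, and Foxa1/2cKO 1 was just under the controls (-0.19, SE 0.12). *Ndufs4*, an accessory subunit known from Leigh syndrome models, had the highest fold change of the complex at 0.20 (SE 0.14), with 46.9, 51.1, 50.5 and 63.3 FPKM. That value rests on Foxa1/2cKO 2, since Foxa1/2cKO 1 lay between the controls.

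A few complex I genes were far below the rest of the complex, whose median was 66.2 FPKM. *Ndufb4* read 10.3, 10.9, 10.8 and 11.3, and *Ndufab1*, the mitochondrial acyl carrier protein, read 9.69, 12.5, 10.7 and 10.1. *Ndufs5* was listed at 0 in 3 samples and at 1 read, 0.177 FPKM, in Foxa1/2cKO 2. These genes have near-copies in the genome: 38.7%, 38.2% and 41.2% of the 50-base stretches of their transcripts are also held by other annotated genes, mostly processed pseudogenes. BC002163, the annotated copy that shares the stretches of *Ndufs5*, was listed at 1.70, 1.42, 2.26 and 1.83 FPKM. How reads that match several places were counted is not given in the sources used here, so the levels of these genes are uncertain. Of the 92 genes, 16 share over 30% of their stretches. Across the 85 tested genes with a value, the share and the mean FPKM had a Spearman rho of -0.01, given as a description across genes that share libraries. *Ndufa4l2*, a relative of *Ndufa4* known from hypoxic cells, was listed at 0 in all samples, where 3 reads would give 0.202 to 0.280 FPKM.

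The 7 complex I assembly factors were the group with the lowest levels and the largest fitted changes. Their median log2 fold change was -0.17, with 6 of 7 means lower in Foxa1/2cKO, and with either control 2 or Foxa1/2cKO 2 left out that median was -0.033 or -0.031. *Ndufaf2*, an assembly factor that binds a late intermediate of complex I, read 14.3, 13.6, 9.40 and 5.83 FPKM, from 146, 126, 69 and 44 reads. Both Foxa1/2cKO samples lay below both controls, and Foxa1/2cKO 2 was the lower of them. The log2 fold change was -0.83 (SE 0.22, 95% interval -1.40 to -0.26; unadjusted p = 0.0143, adjusted p = 0.863 from limma), and dropping any 1 sample moved it no further than -1.13 or -0.53.

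*Ndufaf2* lies on the minus strand of chromosome 13, from 108002715 to 108158623 in mm10. Its start faces that of *Ercc8*, a gene of transcription-coupled repair on the plus strand, at a distance of 108 bases, so the *Ndufaf2* window printed above also holds the start of *Ercc8*. *Ercc8* read 9.48, 9.23, 11.1 and 11.6 FPKM. *Smim15*, a small membrane protein gene on the plus strand within the span of *Ndufaf2*, read 33.0, 36.7, 41.3 and 46.1. In both neighbours the controls were the lower group, with log2 fold changes of 0.25 (SE 0.09) and 0.32 (SE 0.11) and adjusted p = 0.863 from limma for each, and *Ndufaf2* lay on the other side. None of the 50-base stretches of the *Ndufaf2* transcript nearest in length to the gene model, of 678 bases, is held by another annotated gene, and 0% of its exonic bases overlap another gene.

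Of the other assembly factors, *Ndufaf1*, which acts early with the acyl-CoA dehydrogenase Acad9, read 13.9 and 14.2 FPKM in the controls, against 12.3 ± 0.475 in Foxa1/2cKO. The Foxa1/2cKO samples lay below the controls with a small difference, -0.17 (SE 0.09; unadjusted p = 0.121 from limma). *Ndufaf3* was the highest of the group and read 19.1, 21.3, 20.8 and 28.5, for a log2 fold change of 0.26 (SE 0.17). Here only Foxa1/2cKO 2 lay above the controls. *Ndufaf4*, *Ndufaf5*, *Ndufaf6* and *Ndufaf7* had means of 3.89 to 6.95 FPKM, and the groups overlapped in each, with log2 fold changes from -0.31 to -0.029.

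**Figure D3:**
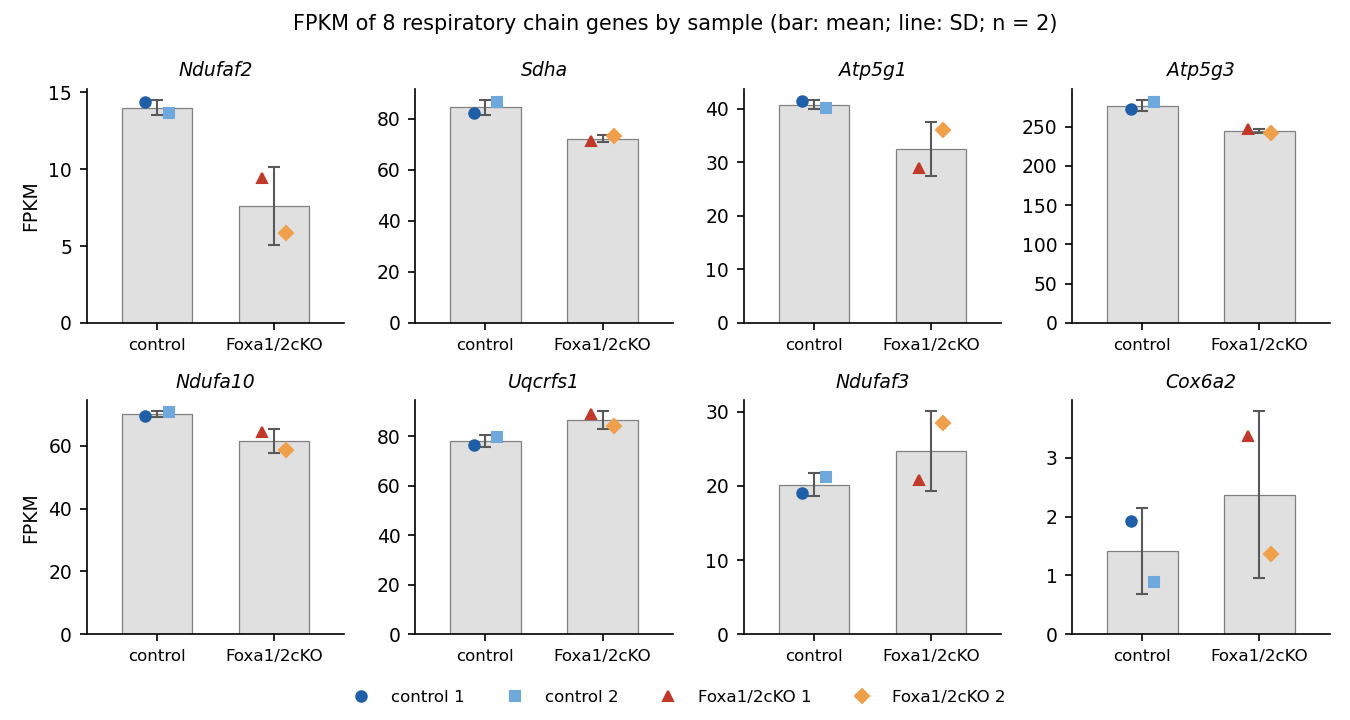
FPKM of 8 respiratory chain genes in each sample, with the mean (bar) and SD (line) of the 2 samples of a group; axes start at 0. The Foxa1/2cKO samples lie below the controls for *Ndufaf2*, *Sdha*, *Atp5g1*, *Atp5g3* and *Ndufa10* and above them for *Uqcrfs1*, and the groups overlap for *Ndufaf3* and *Cox6a2*.

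Complex II, succinate dehydrogenase, is also an enzyme of the tricarboxylic acid cycle and has no subunit from mitochondrial DNA. *Sdha*, the flavoprotein that oxidises succinate, read 82.4, 86.4, 71.1 and 73.2 FPKM. The groups did not overlap, at 84.4 ± 2.84 against 72.2 ± 1.53, and the log2 fold change was -0.22 (SE 0.08, 95% interval -0.44 to -0.01; unadjusted p = 0.0455, adjusted p = 0.863 from limma). The unadjusted limma p was 0.142 with the replicate number as a block, 0.0774 with the length trend taken out and 0.211 with both. It was 0.0716 with no mean-variance trend, 0.0455 with a pseudocount of 0.1 and 0.0283 with no filter. With limma-voom it was 0.0349, with upper-quartile scaling 0.0237 and with scaling to all recovered reads 0.0205. *Sdha* is a long transcript for this set, with 2194 to 3525 reads a sample, and none of its stretches is shared. *Sdhb*, the iron-sulphur subunit, read 110.0, 116, 107 and 105. It lay on the same side with a smaller difference, -0.094 (SE 0.08), again without overlap.

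The membrane anchors of complex II did not share that order. *Sdhc* read 70.3, 72.6, 65.3 and 77.8 and *Sdhd* read 59.2, 62.5, 66.0 and 58.4. In both the Foxa1/2cKO samples lay on either side of the controls, with log2 fold changes of -0.0039 (95% interval -0.30 to 0.29) and 0.029 (-0.23 to 0.29). The difference between catalytic and anchor subunits was not tested. The median of the complex was -0.049.

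Complex III, the cytochrome bc1 complex, was represented by 8 genes, and 0 had an unadjusted p under 0.05. Their summed FPKM was 909, 944, 896 and 957, and the median log2 fold change was 0.0098. *Uqcrh*, the hinge protein, was the most abundant at 248, 267, 254 and 276, or 257 ± 13.7 against 265 ± 15.7. *Uqcr10* read 128, 133, 128 and 137. Replicate 2 was the higher sample of each group in both. *Uqcrq*, an accessory subunit next to cytochrome b, read 127, 134, 116 and 123, with both Foxa1/2cKO samples under the controls (-0.12, SE 0.09). *Uqcrfs1*, the Rieske iron-sulphur protein, was on the other side: it read 76.4, 79.8, 89.0 and 84.0, with no overlap between the groups. Its log2 fold change was 0.15 (SE 0.09, 95% interval -0.08 to 0.37; unadjusted p = 0.152, adjusted p = 0.863 from limma). *Cyc1*, the cytochrome c1 of the complex, is outside the symbol rule and read 90.9, 91.7, 93.6 and 94.4.

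Complex IV, cytochrome c oxidase, had 18 genes listed, of which 14 were tested and 0 had an unadjusted p under 0.05. Its median log2 fold change was 0.027 and its summed FPKM 1753, 1800, 1738 and 1798. *Cox4i1*, which binds the catalytic core early in assembly, read 293, 312, 292 and 311, for a log2 fold change of -0.0025 (95% interval -0.24 to 0.24). *Cox6a1* read 248, 251, 240.3 and 271, and *Cox6b1* read 228, 229, 226 and 257. In these 3 the groups overlapped, and in the last a single sample, Foxa1/2cKO 2, was high. *Cox8a* read 189, 188, 178 and 170.2, with both Foxa1/2cKO samples lower (-0.11, SE 0.08), and *Cox5a* read 132, 140.4, 134 and 112, with only Foxa1/2cKO 2 lower (-0.15, SE 0.12). On the opposite strand the annotated lncRNA Gm26631 covers 41.7% of the exonic bases of *Cox5a*. Whether counting used the strand is not given in the sources used here, so reads of the pair cannot be told apart.

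Several complex IV subunits exist as a general and a tissue isoform, and the general form made up nearly all of the FPKM. *Cox4i1* held 99.8% of the FPKM of subunit 4 in each control and 99.9% and 100% in Foxa1/2cKO. The form of lung and hypoxic cells, *Cox4i2*, had 6, 6, 2 and 0 reads, too few to test. *Cox7a2* held 98.0% to 98.6% of the FPKM of *Cox7a2* and *Cox7a1*, the form of heart and skeletal muscle. *Cox7a2l*, which was left out of that share, read 99.3, 104.0, 100.3 and 119.1 FPKM, near the level of *Cox7a2*. *Cox6b1* held 97.2% to 97.6% of subunit 6b, beside *Cox6b2*, known from testis, at 5.85 to 6.46 FPKM. *Cox7b2*, *Cox8b* and *Cox8c*, the other tissue forms, were listed at 0 in all samples, where 3 reads would give 0.370 to 0.772 FPKM.

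*Cox6a2*, the heart and muscle form of subunit 6a, had the widest interval of the set. It read 1.93, 0.894, 3.37 and 1.37 FPKM from 19, 8, 24 and 10 reads, for 0.355% to 1.38% of subunit 6a. The groups overlapped, and the log2 fold change of 0.45 had a 95% interval from -0.56 to 1.46. The samples took the same order in *Cox6a2* as in the summed B cell markers given above, with Foxa1/2cKO 1 highest and control 2 lowest. Of 8 muscle markers, 2 were at 0 in all samples, *Tnnt3* read 3.81 to 4.47 FPKM, and the list summed to 4.10 to 4.97. The part of other cells in the *Cox6a2* values was not tested. On the opposite strand *Itgad* covers 10.3% of the exonic bases of *Cox6a2*.

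Complex V, the ATP synthase, contributed the most transcript, with summed FPKM of 2752, 2801, 2674 and 2714 over 15 genes. The Foxa1/2cKO sums lay under both controls by a small amount, at 2776 ± 35.0 against 2694 ± 28.6, and 0 of the 15 genes had an unadjusted p under 0.05. The median log2 fold change was -0.040. *Atp5b*, the catalytic beta subunit of the F1 head and the most abundant of all the genes here, read 542, 557, 521 and 548 (-0.040, SE 0.09). *Atp5a1*, the alpha subunit, read 332, 339, 338 and 336, for a log2 fold change of 0.0044 (95% interval -0.21 to 0.22). The groups overlapped in both.

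**Figure D4:**
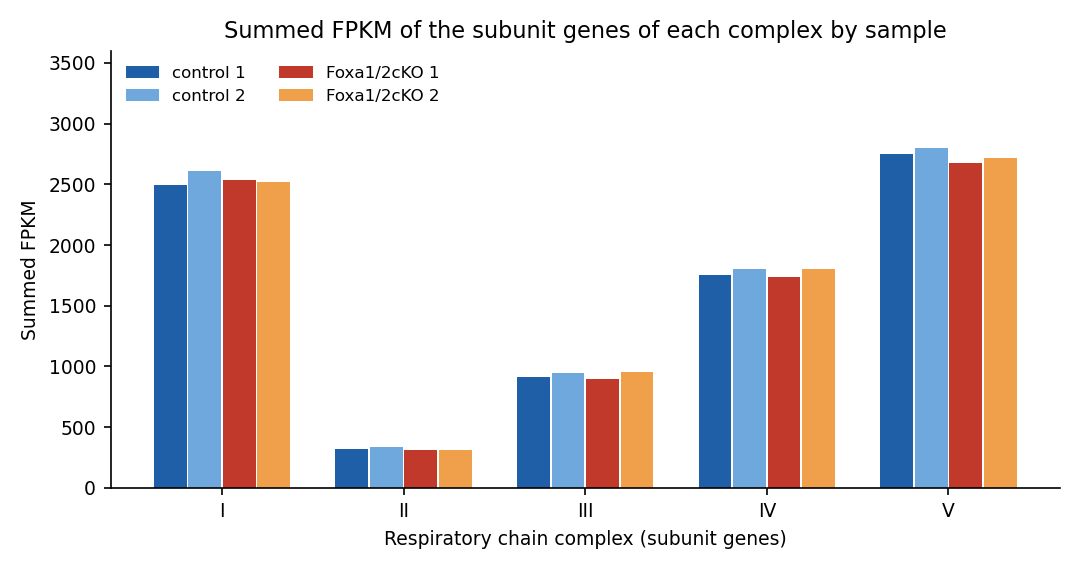
Summed FPKM, as deposited, of the subunit genes of complexes I to V in each sample. Bars start at 0. In complexes II and V both Foxa1/2cKO samples lie under both controls, by 311.6 against 329.7 and 2694 against 2776 FPKM on average, and in complexes I, III and IV the groups overlap.

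The smallest p values in complex V belonged to genes of its c subunit, the ring that turns as protons pass. *Atp5g1*, *Atp5g2* and *Atp5g3* encode the same mature protein behind different import sequences. *Atp5g3*, the major form, read 272, 282, 246 and 242, and *Atp5g1* read 41.3, 40.1, 28.9 and 36.0. In both the groups did not overlap, with log2 fold changes of -0.18 (SE 0.08; unadjusted p = 0.0879) and -0.33 (SE 0.13; unadjusted p = 0.0556), both with adjusted p = 0.863 from limma. *Atp5g2* read 37.4, 33.8, 36.4 and 25.6, with only Foxa1/2cKO 2 below the controls (-0.21, SE 0.18).

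Summed over the 3 genes, c subunit transcripts came to 351, 356, 312 and 304 FPKM, again without overlap. *Atp5g3* made up 77.5% to 79.7% of the sum in every sample. The shares of the minor genes moved more: *Atp5g1* had 11.8%, 11.3%, 9.28% and 11.9%, and *Atp5g2* had 10.7%, 9.51%, 11.7% and 8.43%, so that *Atp5g2* was the larger of the pair in Foxa1/2cKO 1 only. Processed pseudogenes hold part of these sequences, 56.2% of the stretches of *Atp5g1* and 46.4% of those of *Atp5g2* but 0% of those of *Atp5g3*, so the smaller 2 levels are uncertain.

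*Atp5l*, the g subunit, was the lowest of complex V at 9.25, 10.6, 11.6 and 10.9 FPKM. Its Foxa1/2cKO values were the higher (0.16, SE 0.11). It also shared the most sequence of the tested genes in complex V, 84.8% of its stretches, with 14 other annotated genes, and is therefore uncertain. *Atp5sl*, now known as a factor for complex I assembly, read 17.3 to 18.8, and *Atp5s*, a coupling factor, 2.47 to 3.37, with no order between the groups.

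Genes that work with the chain but fall outside the symbol rule were read from lists. Of the 13 subunits encoded in mitochondrial DNA, 0 were in the table used, and they were not analysed here. In a mixed list of other subunits, carriers and proteins that act on the complexes, 12 were tested. Of these 1 (8.33%), not itself a subunit or carrier, had an unadjusted p under 0.05 from limma, beside 4.55% of all genes tested. That gene, *Dnajc15*, a DnaJ protein of the inner membrane known to restrain complex I, read 68.8, 70.1, 91.5 and 113 FPKM. Foxa1/2cKO values were above those of the controls, for a log2 fold change of 0.54 (SE 0.12, 95% interval 0.21 to 0.87; unadjusted p = 0.00863, adjusted p = 0.863 from limma). Of 40 tested assembly factors outside the rule 1 (2.50%) passed the same unadjusted threshold, *Foxred1*, a complex I factor, at 13.8 ± 1.06 against 11.1 ± 0.0110 (-0.29, SE 0.10). Of 13 genes of coenzyme Q synthesis 1 (7.69%) did, *Coq2*, which joins the ring to its tail, at 19.5, 18.2, 15.0 and 12.8 (-0.42, SE 0.11). In both of these the Foxa1/2cKO samples lay below the controls, and adjusted p was 0.863 from limma.

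In the tricarboxylic acid cycle 0 of 14 tested genes passed the unadjusted threshold of limma, and in the list of mitochondrial biogenesis regulators 0 of 15 did. Of all genes tested 4.55% did. The medians of these lists were -0.031 and 0.034 on the log2 scale. The 77 tested genes of the mitochondrial ribosome, a comparison set of similar kind, had a median of -0.017, with 1 unadjusted p under 0.05 (1.30%). Their groups did not overlap for 27 genes (35.1%), against 36.7% of all genes tested. The 83 tested genes of the cytosolic ribosome had a median of -0.078, with 1 unadjusted p under 0.05 (1.20%).

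Members of this set are short, with a median gene model of 746.5 bases against 2751 over all tested genes, and fold change moved with length over the whole table. Genes of up to 1000 bases had a median log2 fold change of -0.025, and those over 8000 bases 0.095. Across all 10775 tested genes with a length the Spearman rho was 0.14, given as a description. Across the 86 respiratory chain genes it was -0.026. With a trend on annotated transcript length taken out, the median of the 85 respiratory chain genes in that fit was 0.031 in place of -0.014. Over all genes tested the median was then 0.022 in place of 0.0051.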

How the data were processed

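Reads of 2 control and 2 Foxa1/2cKO samples of CD69+DP thymocytes were aligned by the authors to mm10 with RefSeq genes and counted for each gene with HTSeq in union mode. The table deposited by the authors holds FPKM, and the step from counts to FPKM is not given in the sources used here. The submitters' processing notes list TopHat, Picard and DESeq2. The spacing of FPKM values gave back whole reads for 100% of the 16069 genes above 0 (a factor common to all 4 samples of a gene can be missed), and 96.3% of the 10222 genes over 50 reads gave a whole gene length. Recovered reads served for depth, for the limit of 3 reads behind a value of 0 and for an alternative fit, and such limits cover counting error only.

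Foxa1/2cKO was compared with control by limma 3.58.1 in R 4.3.3 on log2(FPKM + 1), with a mean-variance trend, for the 10776 genes that reached 1 FPKM in 2 or more samples. P-values were two-sided and adjusted by the Benjamini-Hochberg method over all 10776 genes, at a threshold of 0.05. The fit had 2 residual and 2.69 prior degrees of freedom. The pseudocount of 1 understates the change of low genes. The fit was tested before use on simulated reads with 1 small spread, the same in both groups. Since the Foxa1/2cKO samples here differ more than the controls, that test does not give the error rate or power in these data. Summaries were made in Python 3.11.15 with pandas 2.3.3 and numpy 2.4.6, and figures with matplotlib 3.10.9.

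The genes were taken by symbol, and the gene lists and marker lists were written with earlier results of these data known. Given in full were the 3 most abundant genes and the 2 with the smallest limma p in each complex, the complex I core, complex II, the isoforms of a subunit, every gene whose groups did not overlap with an unadjusted p under 0.05, and every gene at 0. *Ndufs4*, *Ndufb4*, *Ndufab1*, *Ndufs5*, *Atp5l* and the neighbours of *Ndufaf2* were chosen after their values were seen. For each gene the annotated transcript nearest in length to the gene model was cut into 50-base stretches, and those held by another annotated gene on either strand were counted. Promoter windows of 300 bases came from RefSeq. Alternatives were a pseudocount of 0.1, no filter, upper-quartile scaling, the replicate number as a block, removal of a loess trend on transcript length (alone and with the block), no mean-variance trend, and omission of each sample. Limma-voom and scaling to all recovered reads were chosen after seeing the data. Exon usage and protein sequences were not analysed here, and single values of some genes covered by this rule are not reported here.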

Additional observations from a re-analysis of the deposited data

How the results depend on the processing

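No alternative that kept all 4 samples gave a respiratory chain gene an adjusted p under 0.05. The unadjusted count of 2 became 1 with the replicate block (1.16%, against 3.51% of all genes tested). It also became 1 with the length correction (1.18%, against 4.09%) and with no mean-variance trend (1.16%, against 4.89%). *Sdha* was lost each time. With the length correction and the replicate block together it was 2 (2.35%, against 3.58%), *Ndufaf2* and, in place of *Sdha*, *Cox6a2*, higher in Foxa1/2cKO. It became 3 with no filter (3.41%, against 4.99%), with *Cox4i2* added. With upper-quartile scaling, limma-voom or scaling to all recovered reads it became 3, with *Atp5g1* added. That was 3.49% in each, against 4.93%, 4.96% and 4.99% of all genes tested. The median log2 fold change of all tested members, -0.014, became 0.031 with the length correction, with or without the replicate block, and -0.048 with scaling to all recovered reads. Under the same alternatives the median became 0.033 and -0.045 in complex I and -0.010 and -0.084 in complex II. It became 0.072 with the length correction in complex IV. In complex V it became 0.0029 with the length correction, -0.075 with that scaling and -0.060 with upper-quartile scaling. The median over all genes tested moved the same way, from 0.0051 to 0.022 with the length correction. It became -0.026 with scaling to all recovered reads and -0.013 with upper-quartile scaling. With the length correction the median of all tested members moved further than that of all genes tested. The cause of these shifts was not tested.

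Leaving out each sample in turn gave 0 to 16 adjusted and 1 to 26 unadjusted calls. The medians then ran from -0.042 to 0.019 over all members, -0.035 to 0.021 in complex I, -0.22 to -0.031 in its assembly factors, -0.11 to -0.019 in complex II, -0.034 to 0.057 in complex III, -0.020 to 0.045 in complex IV and -0.056 to -0.00020 in complex V.

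Some fold changes changed sign. With the length correction, with or without the replicate block, *Cox4i1* was at 0.044 and *Sdhc* at 0.020. With scaling to all recovered reads *Atp5a1* was at -0.030 and *Sdhd* at -0.0053. *Atp5a1* was at -0.016 with upper-quartile scaling and at -0.0037 with limma-voom. With each sample left out, *Atp5a1* ran from -0.011 to 0.020, *Atp5g2* from -0.46 to 0.032, *Cox4i1* from -0.049 to 0.044, *Sdhc* from -0.13 to 0.12 and *Sdhd* from -0.059 to 0.12.

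The replicate numbers are shared by the groups, but nothing in the labels says that a number marks a shared sort, and deviations from the group means correlated at -0.06 between same-numbered samples. With 2 samples a group, limits are set by the Foxa1/2cKO spread, and genes under 50 reads or with near-copies are the least certain.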
